A study of Mus musculus with 6 samples.

Results

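Pygl, Pygb and Pygm encode the glycogen phosphorylases. They and 6 genes that act around them in glycogen synthesis and breakdown (Gyg, Ugp2, Gys1, Gbe1, Pgm1 and Pgm2) were followed in cytotoxic T lymphocytes (CTL). The cells were transduced with the transcription factor KLF2 or with an empty vector. The 9 genes were taken as every probe set that the array annotation assigned to exactly 1 gene, that gene being on the list. They had 16 of the 45037 probe sets tested and were 9 of the 18193 genes these probe sets name. Pygl was chosen by its difference between the groups compared here, so the values of all 9 genes in this contrast are a description and no evidence of an effect, and no p-value is given for them. Their confidence intervals and calls are part of that description.

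CD8 T cells came from C57BL/6 mice, 8 to 12 weeks old, that carry the P14 LCMV TCR transgene, a T cell receptor against a peptide of lymphocytic choriomeningitis virus. Splenocytes received the peptide for 48 hours, were transduced with a retrovirus 18 hours into that time, and then spent 48 hours in IL-2, which the labels call day 4. A supplementary legend gives a longer time in IL-2 before the RNA was taken, and the labels are followed here. Control cells received empty vector expressing GFP alone (evGFP), the other cells a fusion of GFP to KLF2 (GFP-KLF2), and RNA from cells purified by flow cytometric sorting was hybridised to Affymetrix arrays. Each group had 3 arrays, labelled as biological replicates 1 to 3, and both groups shared the strain, the T cell receptor, the peptide, the retroviral transduction and IL-2.

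Glycogen is a branched store of glucose. Glycogenin, encoded by Gyg, primes a new particle, UDP-glucose pyrophosphorylase (Ugp2) makes the activated glucose donor, glycogen synthase (Gys1) lengthens the chains and the branching enzyme (Gbe1) introduces branch points. Glycogen phosphorylase removes glucose units as glucose 1-phosphate, which phosphoglucomutase turns into glucose 6-phosphate, and its liver, brain and muscle forms are the products of Pygl, Pygb and Pygm. KLF2 is a zinc finger factor of the Kruppel-like family, whose members bind CACCC boxes and other GC-rich elements.

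All values below are log2 of the deposited intensity, and a difference is the GFP-KLF2 mean minus the evGFP mean. The arrays had closely matched distributions, with medians of 5.64 to 5.67, and arrays of 1 group correlated at 0.993 to 0.996 over all probe sets against 0.982 to 0.9897 between groups. The only Klf2 probe set was 10.05 ± 1.13 (SD, n = 3) in evGFP and 9.41 ± 0.59 (SD, n = 3) in GFP-KLF2 cells. According to the study, the construct lacks the untranslated sequence read by this probe set, which therefore does not check the labels.

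Pygl, the liver form, had the widest separation of the 9 genes. Its single probe set read 4.77, 5.20 and 6.19 in evGFP replicates 1, 2 and 3, and 10.53, 8.64 and 9.88 in GFP-KLF2 replicates 1, 2 and 3. Every GFP-KLF2 array lay above every evGFP array, with a gap of 2.45 between the nearest of them. The means were 5.39 ± 0.73 and 9.68 ± 0.96 (SD, n = 3 each), a difference of 4.29 (95% confidence interval 3.10 to 5.49), or 19.6-fold. Within replicate numbers the difference was 5.75, 3.45 and 3.68. In the evGFP arrays the probe set ranked between the 35.2 and the 57.4 percentile of its own array, and in the GFP-KLF2 arrays between the 79.9 and the 92.4 percentile. Pygl thus moved from the middle of the array's ranks to their upper part, and evGFP replicates 1 and 2 were below the median of all probe sets. The middle ranks are low in intensity, and the evGFP mean lay under 6, the level taken as dim here. In bulk RNA, fewer cells with a transcript and less of it per cell cannot be told apart.

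**Figure D1:**
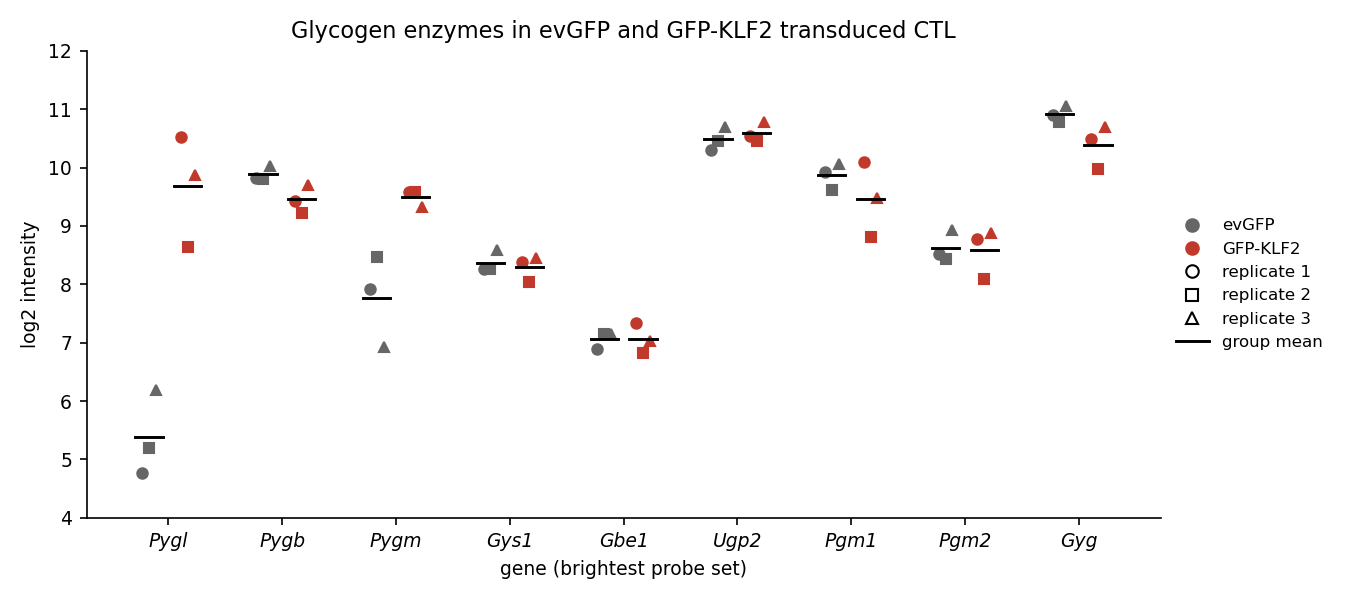
Log2 intensity (y axis) of the brightest probe set of each of the 9 glycogen genes in the 6 arrays, evGFP in grey and GFP-KLF2 in red, with a marker shape for each replicate number and a line for the group mean. Pygl goes from 4.77 to 6.19 in evGFP up to 8.64 to 10.53 in GFP-KLF2, Pygm is also apart and higher, Pygb and Gyg are apart and lower, and the other 5 genes overlap.

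Pygm, the muscle form, was the other phosphorylase gene with higher levels in GFP-KLF2 cells. Its probe set read 7.91, 8.47 and 6.93 in evGFP replicates 1 to 3 and 9.58, 9.57 and 9.32 in GFP-KLF2 replicates 1 to 3. The groups did not overlap and lay 0.85 apart, and the evGFP arrays spread over a wider range than the GFP-KLF2 arrays. The means were 7.77 ± 0.78 and 9.49 ± 0.15 (SD, n = 3 each), a difference of 1.72 (95% confidence interval 0.93 to 2.52), or 3.30-fold. The replicate order differed from that of Pygl, since evGFP replicate 3 had the highest Pygl and the lowest Pygm of its group.

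Pygb, the brain form, was lower in GFP-KLF2 cells by a small margin. It read 9.82, 9.80 and 10.02 in evGFP replicates 1 to 3 and 9.43, 9.23 and 9.71 in GFP-KLF2 replicates 1 to 3. The groups were apart by 0.09 only. The means were 9.88 ± 0.12 and 9.46 ± 0.24 (SD, n = 3 each), a difference of -0.43 (95% confidence interval -0.73 to -0.12), or 1.34-fold lower. Among the 3 phosphorylase genes, Pygl and Pygm were thus higher and Pygb was lower in GFP-KLF2 cells.

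The sequences just upstream of the 3 phosphorylase genes are shown because KLF2 is a DNA-binding factor and these paralogs differed in direction. They are the 250 bases before the annotated start, from RefSeq on GRCm38.p6 and read 5′ to 3′ along the gene: chr12:70227684-70227933 on the minus strand for Pygl, chr19:6384158-6384407 on the plus strand for Pygm and chr2:150786546-150786795 on the plus strand for Pygb. Capitals mark matches of CCNCNCCC, a pattern of GC-rich elements, on either strand.
Pygl: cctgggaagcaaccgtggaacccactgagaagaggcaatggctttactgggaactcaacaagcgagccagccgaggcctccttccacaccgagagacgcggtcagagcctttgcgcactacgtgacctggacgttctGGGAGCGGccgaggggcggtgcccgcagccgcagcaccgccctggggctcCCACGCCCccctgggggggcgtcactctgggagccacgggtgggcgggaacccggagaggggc
Pygm: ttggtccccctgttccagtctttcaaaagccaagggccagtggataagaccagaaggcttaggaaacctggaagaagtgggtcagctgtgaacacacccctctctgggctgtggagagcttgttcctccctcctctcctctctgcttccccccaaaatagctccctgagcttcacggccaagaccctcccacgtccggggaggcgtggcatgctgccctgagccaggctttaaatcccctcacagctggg
Pygb: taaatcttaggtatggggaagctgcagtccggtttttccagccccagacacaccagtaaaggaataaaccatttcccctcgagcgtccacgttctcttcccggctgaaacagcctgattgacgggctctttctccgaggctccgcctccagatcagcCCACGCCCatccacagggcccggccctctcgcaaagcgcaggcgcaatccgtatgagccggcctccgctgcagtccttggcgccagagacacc

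The Pygl window held 2 matches of CCNCNCCC, at -113 to -106 on the minus strand and at -63 to -56 on the plus strand, counted from the start. It also held 1 CACCC, at -26 to -22 on the minus strand, which overlapped neither. Pygm had 1 CACCC at -156 to -152 and no CCNCNCCC, and Pygb had no CACCC and 1 CCNCNCCC at -93 to -86. Both patterns are common: of 32851 RefSeq windows of the same length, 52% held CACCC and 45.9% held CCNCNCCC on either strand, and 27.3% had at least as many CCNCNCCC as Pygl. The Pygl window had a GC content of 69.2%, against a median of 52.4% over all windows, 58.4% for Pygm and 60% for Pygb. Among the other members, the windows of Gys1 and Pgm2 each held 1 CACCC and 4 CCNCNCCC, some of which overlap each other, and those of Gbe1 and Pgm1 held neither. All 9 members had a window. A match is a run of letters and not a measured binding site.

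The genes of glycogen synthesis showed no shift like those of Pygl and Pygm. Gyg, for the primer glycogenin, was lower in GFP-KLF2 cells on both of its probe sets. The brighter read 10.90, 10.78 and 11.05 in evGFP replicates 1 to 3 and 10.49, 9.98 and 10.70 in GFP-KLF2 replicates 1 to 3, a difference of -0.52 (95% confidence interval -0.94 to -0.10), or 1.44-fold lower. The second read 10.73, 10.51 and 10.77 against 10.24, 9.72 and 10.37, a difference of -0.56 (95% confidence interval -0.95 to -0.16). The groups were apart on both probe sets, by 0.08 and 0.14. GFP-KLF2 replicate 2 was the lowest array on each, and without it the difference of the brighter probe set was -0.32.

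Gys1, for glycogen synthase, read 8.26, 8.26 and 8.58 in evGFP and 8.39, 8.04 and 8.45 in GFP-KLF2 replicates 1 to 3. The groups overlapped, with a difference of -0.07 (95% confidence interval -0.40 to 0.25), and they also overlapped on the second Gys1 probe set (-0.06, interval -0.24 to 0.13). Gbe1, for the branching enzyme, read 6.89, 7.15 and 7.15 in evGFP and 7.34, 6.82 and 7.03 in GFP-KLF2 replicates 1 to 3, which overlapped with an interval of -0.33 to 0.34. Ugp2, for the enzyme that makes UDP-glucose, had 5 probe sets, all with overlapping groups. The brightest read 10.29, 10.45 and 10.70 in evGFP and 10.54, 10.45 and 10.78 in GFP-KLF2 replicates 1 to 3, a difference of 0.11 (95% confidence interval -0.20 to 0.42), and the 5 differences ran from 0.0027 to 0.17. The intervals for the brightest probe set of each of Gys1, Gbe1 and Ugp2 thus left room for changes of up to 0.42 in size.

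The phosphoglucomutases were the least tightly measured of the members without a separation. Under the current RefSeq symbols, Pgm1 is the gene with Entrez identifier 72157 and Pgm2 the gene with 66681, and each formerly carried the other's name. Pgm1 read 9.92, 9.62 and 10.06 in evGFP and 10.10, 8.81 and 9.47 in GFP-KLF2 replicates 1 to 3. The groups overlapped because GFP-KLF2 replicate 1 was the highest of all 6 arrays and replicate 2 the lowest, and the difference was -0.41 (95% confidence interval -1.10 to 0.28). It was -0.73 without GFP-KLF2 replicate 1 and -0.08 without GFP-KLF2 replicate 2. A second, dim Pgm1 probe set was apart in the opposite direction, at 5.20 to 5.21 in evGFP and 5.32 to 5.34 in GFP-KLF2, a difference of 0.12 (95% confidence interval -0.04 to 0.28). Pgm2 read 8.52, 8.43 and 8.94 in evGFP and 8.77, 8.10 and 8.87 in GFP-KLF2, with overlapping groups and a difference of -0.05 (95% confidence interval -0.56 to 0.47).

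**Figure D2:**
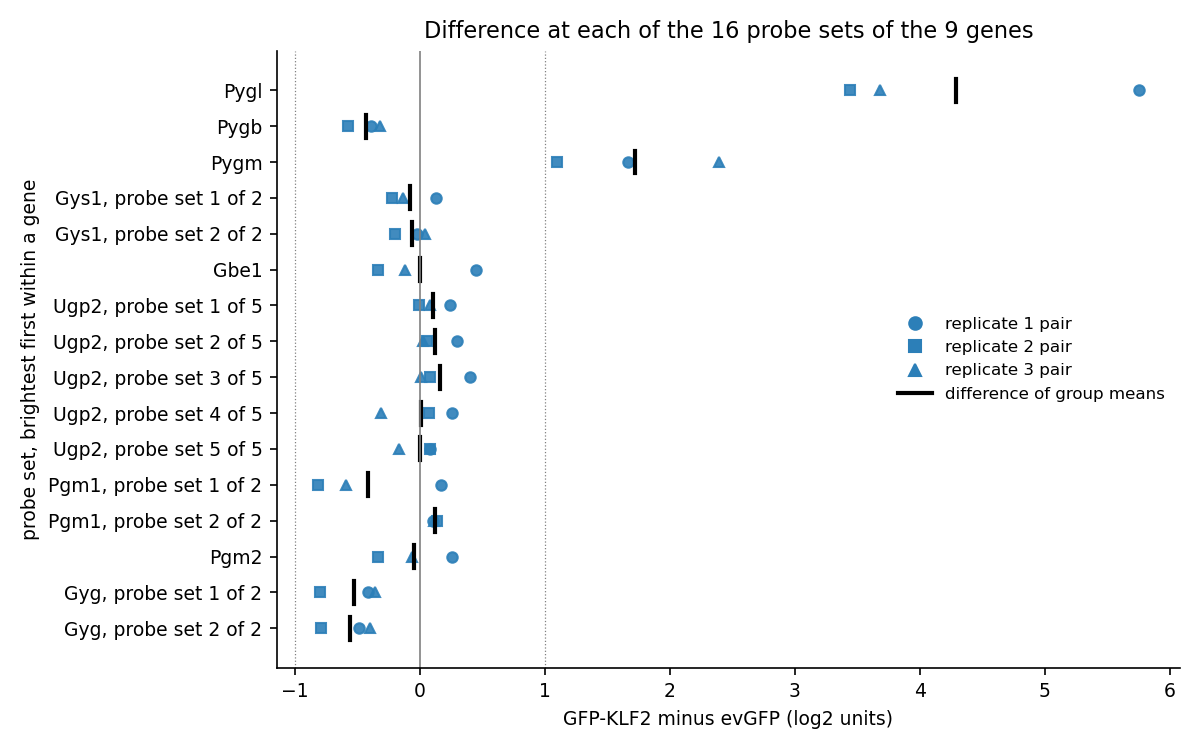
Difference in log2 intensity, GFP-KLF2 minus evGFP (x axis), for all 16 probe sets of the 9 genes, with a bar for the difference of the group means and a symbol for each of the 3 differences within replicate numbers; dotted lines mark 2-fold. Pygl (4.29) and Pygm (1.72) lie to the right of the 2-fold line in every replicate pair, and all symbols of Pygb and both Gyg probe sets lie between 0 and the 2-fold line on the left.

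Over the 16 probe sets, 3 were apart with GFP-KLF2 higher, 3 were apart with GFP-KLF2 lower and 10 overlapped. Of all 45037 probe sets, 12.5% were apart in the upward and 17.3% in the downward direction. At an adjusted p under 0.046 in limma over all probe sets, 2 of the 9 genes passed with GFP-KLF2 higher (Pygl and Pygm, where 6.22% of all genes did) and 0 passed with GFP-KLF2 lower (where 8.35% of all genes did). At an unadjusted p under 0.05, 2 of the 9 passed in each direction, as did 12% of all genes in the upward and 17.7% in the downward direction. With the replicate number as a block, Pygb and Gyg also passed, giving 2 higher and 2 lower, where 8.58% and 12.1% of all genes passed. Pygm no longer passed without evGFP replicate 1, without GFP-KLF2 replicate 1 or without GFP-KLF2 replicate 2, and Pygb passed without GFP-KLF2 replicate 3. Because the choice of members used this contrast, nothing is read from these counts or from the call of any member. The median difference over the 9 genes was -0.05, beside -0.0077 over all genes.

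The members also varied more between replicates of 1 group than most genes. The within-group SD, pooled over both groups, was 0.851 for Pygl, a value at the 99.4 percentile of 10511 genes with a mean of at least 6, whose median SD was 0.118. Pygm (0.562), Pgm1 (0.482) and Pgm2 (0.355) were at percentiles 97.8, 96.8 and 93.1, and the lowest members, Pygb and Ugp2, were both at 76.6. This spread had a shared order. GFP-KLF2 replicate 2 was the lowest array of its group in 8 of the 9 genes, Pygm being the exception, while this held for 34.2% of all genes. Likewise, evGFP replicate 3 was the highest of its group in 7 of the 9, all but Pygm and Gbe1, and in 34.1% of all genes. Without any single array, Pygl had differences of 3.87 to 4.81 and Pygm of 1.30 to 2.07. Groups that are apart on all 6 arrays stay apart when 1 is left out, so these ranges only describe the spread.

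The genes whose pattern was most like that of Pygl over the 6 arrays were Ccnd3, for cyclin D3 (Pearson r = 0.9963), Arhgef2, for the exchange factor GEF-H1 (0.9957), the lipid flippase gene Atp10d (0.9949), Mxd3, of the MYC/MAX network (0.9948), and Cmas, for the enzyme that activates sialic acid (0.9946). They were taken from 10502 genes with a mean of at least 6, and 16 genes had an r over 0.99. The r describes 6 arrays in 2 groups, so a steady difference between the groups with little spread already gives a high r. The second Pgm1 probe set, with such a pattern, had an r of 0.926. The genes named above also shared the order of arrays of Pygl within each group, which a choice by the highest r favours by construction. The differences of these genes were 0.69, 0.87, 1.19, 0.51 and 0.68, far smaller than the 4.29 of Pygl. Atp10d, with the widest of them, went from 6.73, 6.94 and 7.10 in evGFP to 8.27, 7.93 and 8.14 in GFP-KLF2 replicates 1 to 3.

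**Figure D3:**
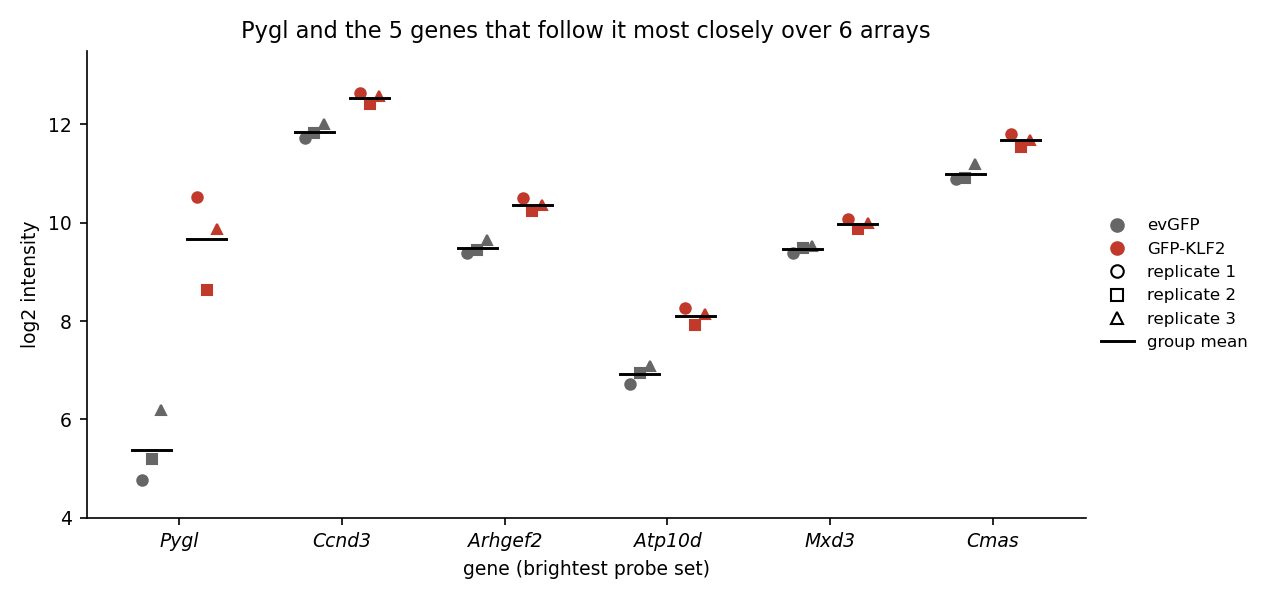
Log2 intensity (y axis) of Pygl and of the 5 genes with the highest Pearson correlation to it over the 6 arrays, evGFP in grey and GFP-KLF2 in red, with a line for the group mean. All 6 genes have the same order of arrays within each group, which the choice by correlation favours. The group means of Pygl lie 4.29 apart against 0.51 to 1.19 for the others.

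A further 38 genes of glycogen handling and of its supply of sugar phosphates were measured of 42 listed. The lists were drawn up by role and kept whole, but with earlier results of these data known. That limits the adjusted p-values given for these genes. In the limma test over all probe sets, 3 of the 38 rose (Slc2a1, Ugcg and Prkab1), 2 fell (Gaa and Ppp1r3e) and 33 did not pass. None of those that passed changed by 2-fold. The shares of all genes that rose and fell were 6.22% and 8.35%. A mean of at least 6 in a group was reached by 28 of them. The median difference of the 38 was 0.04, beside -0.0077 over all genes. With the replicate number as a block, 5 rose and 6 fell, where 8.58% and 12.1% of all genes did. Of the rising genes, 1 was left without evGFP replicate 1 or evGFP replicate 2, and of the falling genes 1 was left without evGFP replicate 2, evGFP replicate 3, GFP-KLF2 replicate 1, GFP-KLF2 replicate 2 or GFP-KLF2 replicate 3.

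Of 6 measured genes for other routes of glycogen breakdown and for phosphorylase kinase, 1 fell and none rose, with a median of -0.10. The gene that fell was Gaa, for the lysosomal acid alpha-glucosidase that degrades glycogen outside the phosphorylase route. It read 8.72, 8.82 and 9.001 in evGFP and 8.20, 8.26 and 8.36 in GFP-KLF2 replicates 1 to 3. The groups were apart, at means of 8.85 ± 0.14 and 8.27 ± 0.08 (SD, n = 3 each), and the log2 fold change was -0.58 (standard error 0.10, limma adjusted p = 0.0107). It passed without any single array (adjusted p = 0.0202 to 0.0448), and its second probe set also fell. Phkb, the beta subunit of the kinase that activates phosphorylase, overlapped between groups (-0.08, 95% confidence interval -0.29 to 0.13, adjusted p = 0.687). The other 4 genes, the alpha and gamma subunits of that kinase, differed by -0.17 to 0.05. No measured gene of phosphorylase kinase thus passed the test beside the higher Pygl and Pygm. Among them, Phka1 (means of 3.82 in evGFP and 3.70 in GFP-KLF2) and Phkg1 (3.54 and 3.58) were dim, so their small differences say little.

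The regulators of glycogen synthase and phosphorylase numbered 18, of which 1 rose and 1 fell, with a median of 0.07. Ppp1r3e, a subunit that targets protein phosphatase 1 to glycogen, read 8.16, 8.48 and 8.37 in evGFP and 7.71, 7.91 and 7.89 in GFP-KLF2 replicates 1 to 3. It fell by 0.50 (standard error 0.11, limma adjusted p = 0.0245), but its second probe set did not pass (-0.19, adjusted p = 0.402), and of the fits that left out 1 array it passed only without evGFP replicate 1. Prkab1, the AMP-activated kinase subunit with a glycogen-binding domain, read 8.91, 8.87 and 8.89 in evGFP and 9.28, 9.19 and 9.33 in GFP-KLF2 replicates 1 to 3. It rose by 0.38 (standard error 0.07, adjusted p = 0.0188), although its second probe set did not pass (0.18, adjusted p = 0.296). It did not pass without evGFP replicate 1, evGFP replicate 2, GFP-KLF2 replicate 1 or GFP-KLF2 replicate 3 (adjusted p = 0.0532 to 0.0733). Gsk3b, a kinase that inhibits glycogen synthase, overlapped on its brightest probe set (0.05, 95% confidence interval -0.17 to 0.26, adjusted p = 0.824). A dimmer Gsk3b probe set was apart and higher by 0.49 (adjusted p = 0.0704, or 0.0128 once replicates were paired), while the other 4 did not pass with or without the block.

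Ppp1r3b, the phosphatase 1 subunit named for its part in liver glycogen, had the largest difference of the regulators without passing the test. It read 6.71, 8.13 and 8.83 in evGFP and 9.05, 9.25 and 9.73 in GFP-KLF2 replicates 1 to 3. The groups were apart and evGFP spread widely, with a difference of 1.46 (95% confidence interval 0.33 to 2.58, limma adjusted p = 0.103). The replicate block brought it past the threshold (adjusted p = 0.0147), as did leaving out evGFP replicate 3 (1.93, adjusted p = 0.0337). Without evGFP replicate 1, the lowest array, the difference was 0.87 (adjusted p = 0.116). The block had the same effect for Ppp1r3g (0.33, adjusted p = 0.0694, with the block 0.0403), Epm2a, for the glycogen phosphatase laforin (-0.44, adjusted p = 0.05, with the block 0.014), and Nhlrc1, for its partner malin (-0.34, adjusted p = 0.190, with the block 0.0243). Ppp1r3g (means of 4.17 in evGFP and 4.50 in GFP-KLF2) and Nhlrc1 (4.85 and 4.51) were dim. The second, dimmer Epm2a probe set overlapped between groups and differed in the other direction, by 0.18. The remaining 11 regulators, among them the phosphatase 1 catalytic subunits, differed by -0.22 to 0.27 on their brightest probe sets. A second bright probe set of the catalytic subunit gene Ppp1cc fell by 0.41 (adjusted p = 0.0154).

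Supply of glucose 6-phosphate had the highest list median, 0.29 over 7 genes, of which 1 rose and none fell. Slc2a1, the glucose transporter GLUT1, read 11.05, 11.09 and 11.24 in evGFP and 12.32, 11.73 and 11.96 in GFP-KLF2 replicates 1 to 3. The groups were apart, with means of 11.13 ± 0.10 and 12.00 ± 0.30 (SD, n = 3 each), a log2 fold change of 0.88 or 1.84-fold (standard error 0.15, limma adjusted p = 0.0116). Both other Slc2a1 probe sets rose too, by 0.95 and 0.93. The call was lost without evGFP replicate 1 (adjusted p = 0.0465) or evGFP replicate 2 (adjusted p = 0.0502). Hk2, the hexokinase induced in activated T cells, was apart with GFP-KLF2 higher but did not pass (0.29, 95% confidence interval 0.04 to 0.53, adjusted p = 0.138). The other 5 genes of the list differed by -0.14 to 0.90, the highest being Slc2a3, for the transporter GLUT3, which is named after its values were seen. Its groups overlapped (adjusted p = 0.130). Of its 3 other probe sets, 1 passed only with the replicate block (0.97, adjusted p = 0.0954, with the block 0.0321).

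Among 7 measured genes that use UDP-glucose or galactose or are further phosphoglucomutases, 1 rose and none fell, with a median of -0.00078. Ugcg, which joins glucose from UDP-glucose to ceramide, read 9.85, 10.15 and 10.16 in evGFP and 10.94, 10.64 and 10.71 in GFP-KLF2 replicates 1 to 3. It rose by 0.71 or 1.63-fold (standard error 0.12, limma adjusted p = 0.0118) and passed without any single array (adjusted p = 0.0202 to 0.0411). Of its other probe sets, 2 rose, by 1.11 and 0.51, and 1 did not pass at 0.54 (adjusted p = 0.115, with the replicate block 0.0229). Ugdh, which oxidises UDP-glucose, was apart and lower (-0.59, adjusted p = 0.0570, with the replicate block 0.0088), as was Pgm3 of the hexosamine route (-0.37, adjusted p = 0.0526, with the block 0.0196). The other 4 genes differed by -0.09 to 0.26.

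**Figure D4:**
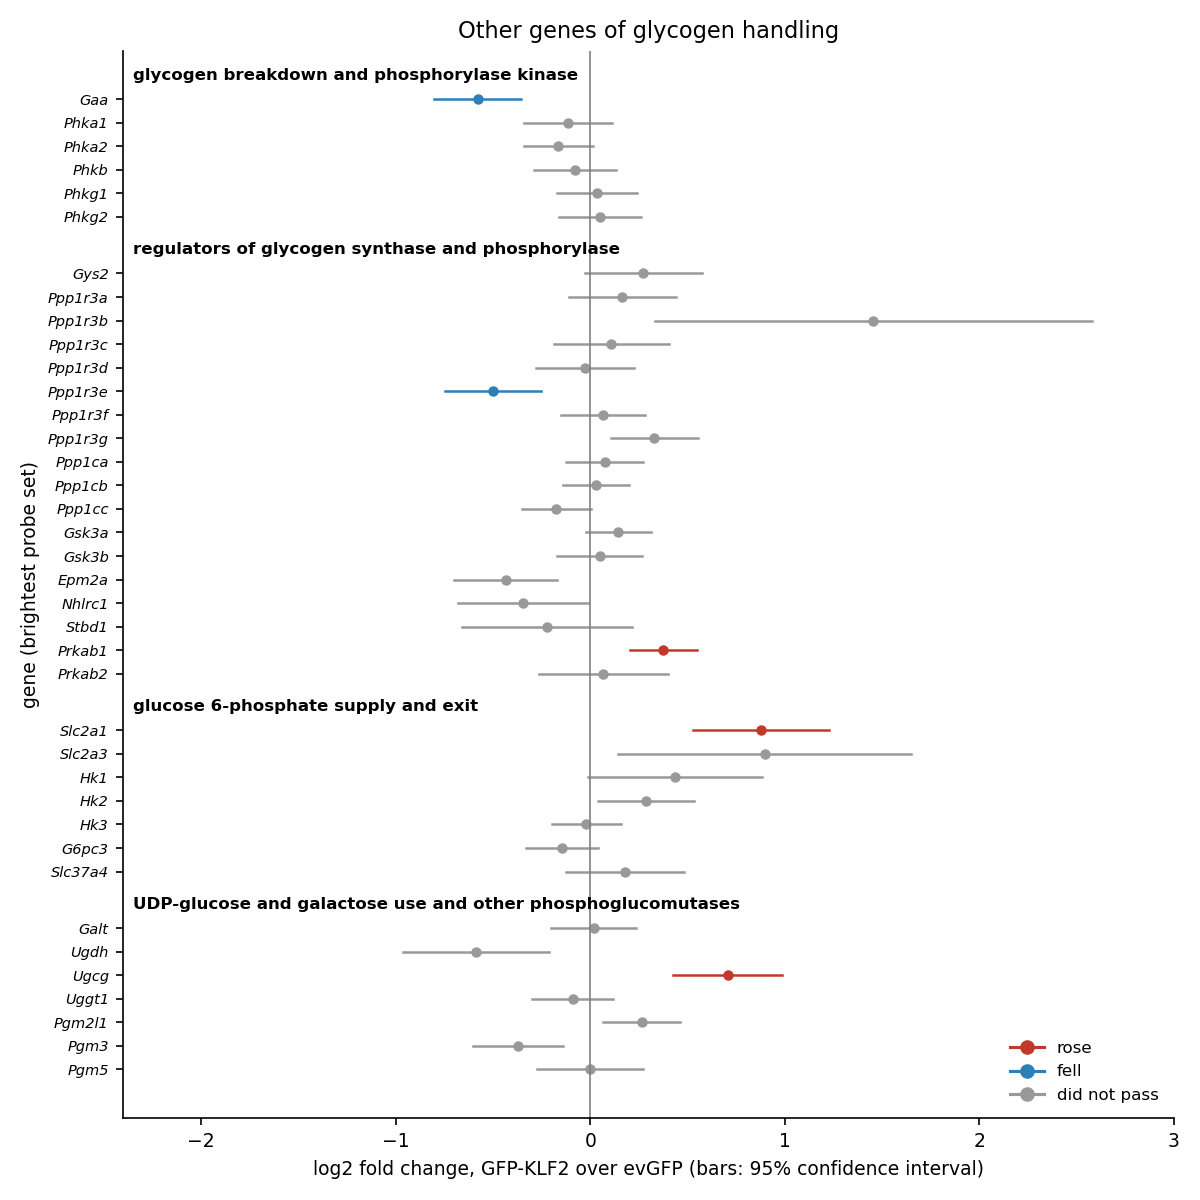
Difference in log2 intensity, GFP-KLF2 minus evGFP, with its 95% confidence interval for the 38 measured genes of 4 lists around glycogen, with genes that rose in the limma test in red and genes that fell in blue. Slc2a1, Ugcg and Prkab1 rose, Gaa and Ppp1r3e fell, and Ppp1r3b has the largest difference (1.46) with a wide interval.

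Because muscle and myeloid cells are known for their own glycogen enzymes, markers of other cell types were read on the same arrays. CD8 T cell markers were bright, with summed linear intensities of 34530 to 36500 in evGFP and 36370 to 37820 in GFP-KLF2, and 1 of 6 rose (Cd8b1, 0.45, limma adjusted p = 0.0107). All 11 measured granulocyte markers had means under 6 in both groups, with sums of 264.6 to 315.6 and 305.2 to 318.5, and none passed. Of 8 macrophage and monocyte markers none passed, 6 were under 6 in both groups, and the sums were 359.9 to 395.3 and 394.6 to 433.2. Cd68 was the nearest of them to the threshold (0.43, adjusted p = 0.0490, with the replicate block 0.0252). None of 5 muscle markers passed (sums of 297.5 to 336.4 and 303.5 to 335.5), nor did any of 4 B cell markers (246.9 to 263.2 and 231.7 to 360.2). Means under 6 in both groups were seen for 3 of the muscle and 3 of the B cell markers. At an unadjusted p under 0.05, 1 macrophage and 2 B cell markers were higher in GFP-KLF2 cells, and no granulocyte or muscle marker was. Of all genes, 12% were higher at that limit. The part of other cells in the difference of Pygl was not tested beyond these levels.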

How the data were processed

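RNA was measured with Affymetrix 3′ expression arrays in 3 evGFP and 3 GFP-KLF2 samples, grouped by their titles. The authors normalised the arrays with RMA (background correction, quantile normalisation between arrays and probe set summaries), and the deposited value is a linear intensity, from 5.738 to 33640. Tool versions are not given in the sources used here. The log2 of the deposited intensity was taken, 64 control probe sets of 45101 were removed, and limma 3.58.1 in R 4.3.3 was fitted to the 45037 others over all 6 arrays with Benjamini-Hochberg adjustment, called at an adjusted p under 0.046, the methods' threshold read as a fraction (they print it as 0.046 percent). Quantile normalisation equalises the arrays, so a shift common to most genes cannot be seen.

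Gene names came from the platform annotation of 2016: 34945 probe sets had 1 gene, 932 had several and 9160 had none, and only those with 1 gene were used. A gene was read on its brightest probe set, all probe sets being given for members. Some listed pathway genes and markers were not analysed here. The members and lists were chosen with earlier results of these data known. The text names all members, and from each pathway list up to 6 genes past the threshold with the largest change and always Gaa, Phkb, Gsk3b, Hk2 and Slc2a1. It also names the 5 genes most correlated with Pygl, and genes whose call the replicate block changed.

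Arrays of the same replicate number resembled each other once each group's mean was subtracted. Their correlations were 0.325, 0.442 and 0.466, against -0.38 to 0.0578 for arrays of different numbers. Deviations from a mean of 3 arrays cancel out, so positive values for the same number push the others down by construction. The labels do not say whether replicates came from separate mice, so p-values measure the spread between these samples. An exact permutation test of 3 against 3 arrays cannot go below 0.1 (2-sided). The number of arrays limits the precision. Alternatives were other thresholds, filters, probe set rules, normalisations, variance models, array weights, the replicate block and leaving out each array. Promoter windows came from RefSeq on GRCm38.p6. The fit was tested on simulated data.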

Additional observations from a re-analysis of the deposited data

How the results depend on the processing

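The Pygl difference was 3.87 to 4.81 without any single array. It was 4.28 with medians set equal, 4.32 with quantile normalisation, 4.36 with cyclic loess and 4.54 with array weights. The dim filter, the probe set rules, the variance model and the replicate block left it at 4.29 by construction. Pygl has a single probe set and the groups are balanced, so these alternatives could not move it. Of the counts, the number of members with GFP-KLF2 higher (2) was 0 at an adjusted p under 0.00046 and 1 to 2 without any single array. The number with GFP-KLF2 lower (0) was 2 with the replicate block and 0 to 1 without any single array. For the 38 pathway genes, the number that rose (3) and the number that fell (2) were both 0 at 0.00046 and 0 with a 2-fold threshold. With the replicate block they were 5 and 6, and without any single array 1 to 4 and 1 to 2. Leaving out dim probe sets gave 5 that fell, among 28 genes then measured. The cause of these changes was not tested, except that stricter thresholds pass fewer genes by construction. On the brightest probe set of each member, pathway gene and marker, the block changed no call other than those of Pygb, Gyg, Ppp1r3b, Ppp1r3g, Epm2a, Nhlrc1, Ugdh, Pgm3 and Cd68. Among genes without a call, the Phkb difference turned to 0.0187 under cyclic loess, and that of Gsk3b ran from -0.0201 to 0.102 without any single array. Levels near 6 and below, where evGFP Pygl lies, are close to the dim end of the arrays, where a fold change tends to be understated.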
